A study of Mus musculus with 10 samples.

Results

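Monocytes, macrophages and dendritic cells are the phagocytic and antigen-presenting branch of the blood system, and the 40 genes described here are a list of their receptors, enzymes and transcription factors, given by name with no threshold on measured values. A member was found through probes whose RefSeq accession belongs to it, and 39 of the 40 members were named by 53 probes among 48997 features of the array. Cd68, a lysosomal membrane protein of macrophages, was matched to no named probe and is not analysed here. In the textbook scheme, circulating monocytes depend on the growth factor receptor Csf1r, sense bacteria through Cd14 and the Toll-like receptors, follow chemokines through Ccr2 and Cx3cr1, and kill with lysozyme and the NADPH oxidase. Conventional dendritic cells need Flt3 signalling and, by subset, express factors such as Batf3, Irf4 and Zbtb46, whereas plasmacytoid dendritic cells carry Siglech. In bone marrow these genes come on as progenitors leave the stem cell pool and commit to the myeloid branch.

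RNA was measured on 10 one-colour Agilent arrays from LSK bone marrow cells, which lack lineage markers, carry Sca-1 and c-Kit, and include stem cells and the earliest progenitors. The cells were sorted for CD45.2 after transplantation and tamoxifen, on the C57BL/6 strain, and 0.02 µg of RNA was labelled with Cy3. Control arrays, called WT here, carried the inducible Cre alone (Cre-Ert), so tamoxifen and Cre were common to all arrays. KO arrays carried Cre-Ert;Ezh2fl/fl, in which tamoxifen removes Ezh2, the enzyme with which Polycomb places its repressive mark on histone H3. One slide (slide 1) held 1 array of each genotype, both labelled 3 months and neither with disease. The other (slide 2) held 1 WT array without disease and 7 KO arrays, all labelled 9-12 months. Of these KO arrays, 2 were labelled with myelodysplastic syndrome (MDS), 3 with MDS that also has features of a myeloproliferative neoplasm (MDS/MPN), 1 with undetermined disease and 1 with a mixture of diseases. By the position numbers in the file headers, the WT, mixed and MDS arrays lay in line 1 of slide 2. The MDS/MPN and undetermined arrays lay in line 2. Among the MDS/MPN arrays the label of replicate 1 adds TC and that of replicate 3 adds CMMoL, terms that the sources used here do not explain. The MDS, MDS/MPN and undetermined arrays bear titles that read as numbers of single animals and are called the 6 single-mouse KO arrays. Whether the WT, mixed and 3-month arrays came from 1 mouse or a pool is not given, and the design text states n = 3 at 3 months, where there was 1 array per genotype. P-values therefore measure only the spread between these arrays.

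Values are log2 signals relative to the 75th percentile of the array, so that 0 is that percentile and 1 unit is a 2-fold step, and different probes are not compared with each other in level. The 75th percentile lay between 78.7 and 301.7 intensity units, 32.5% to 47.5% of probes per array were well above background by the scanner software's call, and no probe was saturated. The LSK genes Kit and Ly6a, which encodes Sca-1, were well above background on all 10 arrays. The Ezh2 probe read 2.14 and 2.63 on the WT arrays of slides 1 and 2 and between 2.13 and 3.35 on the KO arrays. Where this probe lies relative to the deleted exons is not stated in these sources, so it does not check the genotype labels. The deposited value table exchanges the time labels of 4 columns, WT with WT and KO with KO, against the scanner files, and the times used here are those of the scanner files. Which labels are right is not settled by these sources. Under those of the value table, the arrays called mixed and KO of slide 1 would trade labels, as would the WT arrays. All readings by time, and those of the mixed array, rest on this choice.

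The mixed KO array stood apart from the other KO arrays for these genes. It lay below all 6 single-mouse KO arrays for 19 of the 31 members tested on slide 2, against 7.34% of features. It lay above all 6 for 2, Itgam and Lyz1, against 9.59%. Of the 19, Adgre1, Cybb, Clec9a, Cd83 and Batf3 were under background on the WT and mixed arrays of slide 2. They entered the count through the single-mouse arrays alone. From the WT array of slide 2 the mixed array differed at least 2-fold in 8.86% of features, where the single-mouse KO arrays differed in 13.6% to 33.4%. Results over both slides are therefore given with and without it.

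Of the 39 members with a probe, 19 were well above background on all 10 arrays, 12 on some, 5 on 1 array and 3 on none. The members never well above background were Msr1 and Mrc1, scavenger and mannose receptors of tissue macrophages, and Xcr1, the chemokine receptor of cross-presenting dendritic cells. Ms4a7 and Cd209a were seen on the MDS replicate 1 array alone, Fn1 and Irf4 on MDS/MPN replicate 2 alone and Zbtb46 on the undetermined array alone. Cybb, the catalytic subunit of the phagocyte NADPH oxidase, was well above background on 3 KO arrays of slide 2, from MDS replicate 2 and MDS/MPN replicates 2 and 3. By array, 23 and 24 members were seen on the WT arrays of slides 2 and 1, 25 on the mixed array, 29 on the KO array of slide 1 and 26 to 33 on the single-mouse KO arrays. Of all probes, 38.7%, 44.5%, 38.5% and 43.0% were well above background on the first 4 of these arrays. The array with 33 members, MDS/MPN replicate 2, had the largest share of all arrays, 47.5%. The one with 26, MDS/MPN replicate 1, had the smallest, 32.5%. In such bulk RNA, more or fewer cells of a type and more or less RNA per cell cannot be told apart.

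**Figure D1:**
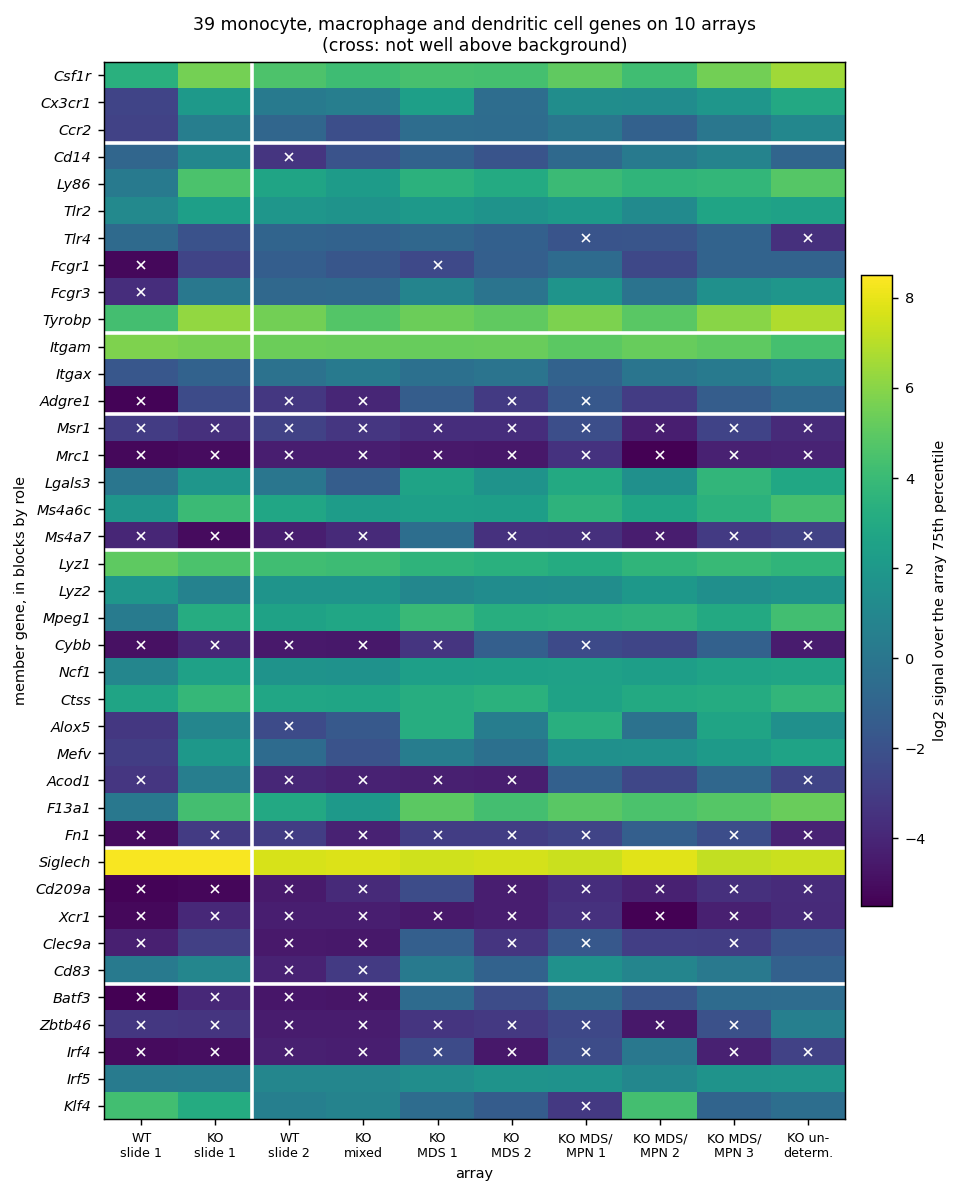
Log2 signal over the array's 75th percentile for the 39 members with a probe (vertical axis, in blocks by role) on the 10 arrays (horizontal axis, slide 1 left of the white line); crosses mark values not well above background. Csf1r, Tyrobp, Itgam, Lyz1 and Siglech were well above background on every array, whereas Msr1, Mrc1 and Xcr1 carried a cross on every array.

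Over both slides, with 8 KO against 2 WT arrays and slide as a block, most members were higher in KO cells, and no single member passed the test. Of the 39 members, 31 had a positive difference, and the median was 0.93 log2 units against -0.003 over all features. By limma with Benjamini-Hochberg adjustment over 22370 features, 0 of the 30 members that passed the signal filter were called in either direction, and 0% of features were called higher and 0% lower. At an unadjusted p under 0.05 limma gave 12 members higher and 0 lower, against 1.9% of features higher and 3.64% lower. Of these 12, Batf3 and Clec9a were under background on both WT arrays and so entered the test through the KO arrays alone. Without the mixed array 15 of 30 members were higher at an unadjusted p under 0.05 (2.25% of features). Without the WT array of slide 1 there were 4 (0.912% of features), and without the KO array of slide 1 also 4 (0.889%). With features well above background on every array there were 6 of 19 (2.44%). The median difference of the members was 1.06 without the mixed array, 1.42 without the WT array of slide 2 (which drops slide 2 from the contrast) and 0.69 without either array of slide 1. Groups did not overlap, all 8 KO arrays lying above both WT arrays, for Alox5, Fcgr3 and Mpeg1, against 3.17% of features, and for no member did all 8 lie below both (2.74%). Every KO array lay above the WT array of its own slide for 6 of the 30 members (5.46% of features) and below it for 2 (5.47%). Of the 6, Cd83 was under background on both the WT and the mixed array of slide 2, whose values therefore have no order. Leaving out the mixed array, the counts of members above and below were 14 (6.63% of features) and 2 (6.64%). Of the 14, Adgre1, Clec9a and Batf3 were under background on both WT arrays.

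Markers of other blood lineages differed between the same arrays. The summed signal of 12 neutrophil markers, which include Elane and Mpo, was 328 on the WT array of slide 1 and 1101 on that of slide 2, in multiples of the 75th percentile. On the KO side it was 2794 on slide 1, 830 on the mixed array and 1067 to 4452 on the single-mouse arrays. All 12 of these markers had a positive KO difference over both slides, with a median of 1.63. For 7 genes of MHC class II presentation, which macrophages, dendritic cells and B cells share, the sum was 148 and 159 on the WT arrays of slides 1 and 2, 362 on the KO array of slide 1, 112 on the mixed array and 227 to 1290 on the single-mouse arrays. The 11 LSK and stem cell markers summed to 463 and 547 on the WT arrays, 480 and 544 on the slide 1 and mixed KO arrays and 240 to 520 on the single-mouse KO arrays. By limma the LSK markers had 10 of 11 negative differences with a median of -1.15, of which 3 were lower at an unadjusted p under 0.05 and 0 called. Erythroid markers (11 genes, median 2.01) and mast cell and basophil markers (9 genes, median 2.09) were on the positive side too. Not all lineages were: the median was -0.15 for 6 megakaryocyte markers, 0.13 for 6 NK cell markers and 0.16 for 7 T cell markers. Of 8 B cell markers, 2 were well above background on each WT array and 3 to 7 on the single-mouse arrays. Whether these other lineages play a part in the members' values was not tested.

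**Figure D2:**
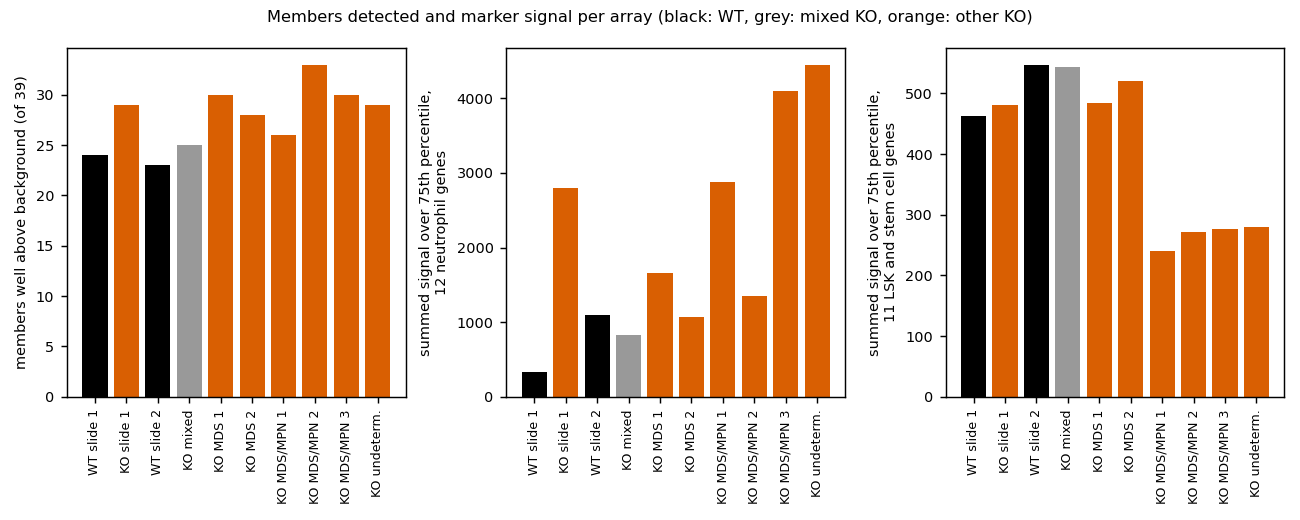
Per array, the number of the 39 members well above background (left) and the summed signal, in multiples of the 75th percentile, of 12 neutrophil markers (middle) and 11 LSK and stem cell markers (right), with WT in black, the mixed KO array in grey and other KO arrays in orange. The neutrophil sum is lowest on the WT array of slide 1 (328) and highest on the undetermined KO array (4452), and the LSK sum is lowest on MDS/MPN replicate 1 (240). The share of all probes well above background differed between arrays too, from 32.5% to 47.5%.

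Promoter sequence is shown for 4 members on which the values below turn: Alox5, with the largest difference over both slides, Batf3, with the smallest adjusted p at 9-12 months, and the lysozyme pair Lyz1 and Lyz2, 2 near-identical genes. The 250 bases before each start are from RefSeq on GRCm38.p6, 5′ to 3′ on the gene's strand. Capitals in Alox5 and Batf3 mark GAGGAA, the core bound by the myeloid factor PU.1 and other ETS proteins, and in the lysozyme genes the 50 bases before the start that both share.
Alox5, chr6:116461179-116461428, minus strand: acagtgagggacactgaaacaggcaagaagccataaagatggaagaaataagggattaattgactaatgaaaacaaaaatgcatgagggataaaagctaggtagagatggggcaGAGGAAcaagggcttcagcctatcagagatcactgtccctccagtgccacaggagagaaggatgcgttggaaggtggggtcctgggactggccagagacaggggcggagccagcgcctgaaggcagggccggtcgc
Batf3, chr1:191098164-191098413, plus strand: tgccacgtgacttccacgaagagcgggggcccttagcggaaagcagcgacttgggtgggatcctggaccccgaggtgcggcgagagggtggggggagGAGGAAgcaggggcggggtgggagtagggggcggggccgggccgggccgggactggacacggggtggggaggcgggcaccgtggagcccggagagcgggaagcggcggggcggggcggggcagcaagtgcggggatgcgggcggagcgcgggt
Lyz1, chr10:117292869-117293118, minus strand: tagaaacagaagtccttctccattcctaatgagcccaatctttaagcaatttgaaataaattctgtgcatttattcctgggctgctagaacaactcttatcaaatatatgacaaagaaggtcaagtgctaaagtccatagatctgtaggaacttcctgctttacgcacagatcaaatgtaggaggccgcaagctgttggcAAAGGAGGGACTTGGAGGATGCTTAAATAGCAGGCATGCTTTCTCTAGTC
Lyz2, chr10:117282273-117282522, minus strand: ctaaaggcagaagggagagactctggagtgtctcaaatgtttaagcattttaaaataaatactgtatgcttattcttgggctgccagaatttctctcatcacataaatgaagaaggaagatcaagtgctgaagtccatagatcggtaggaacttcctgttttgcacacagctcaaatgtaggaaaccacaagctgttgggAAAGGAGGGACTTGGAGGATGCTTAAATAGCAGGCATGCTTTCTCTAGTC
The last 100 bases of the Lyz1 and Lyz2 windows were identical at 92 positions. The genes are near-identical copies in their transcripts as well, as background, so values of either are uncertain as to the copy they come from. Promoters of 32 members, 35 in all, were in the RefSeq table. GAGGAA on either strand was in 12 of these 35 windows, 34.3%, and in 23.3% of all 32851 promoter windows of this length. TGANTCA, the AP-1 element to which Batf3 binds with Jun proteins, was in 5 of 35 windows, 14.3%, against 6.75% of all, with each motif counted on its own whether or not it overlapped the other. Alox5 and Batf3 each held 1 GAGGAA and no TGANTCA.

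Growth factor and chemokine receptors comprised Csf1r, Cx3cr1 and Ccr2, all well above background on every array and all with a positive difference over both slides. By limma 0 were called, and 1, Cx3cr1, was higher at an unadjusted p under 0.05. Csf1r, the receptor of macrophage colony-stimulating factor, read 3.38 in WT and 5.56 in KO cells on slide 1. On slide 2 it read 4.60 in WT, 4.16 on the mixed array, and 4.21, 4.76 and 6.48 as the lowest, median and highest of the 6 single-mouse KO arrays. Its groups thus overlapped on slide 2, where 3 of the 6 lay above WT, and the difference over both slides was 0.98 ± 0.67 (limma SE, 8 KO and 2 WT arrays, adjusted p = 0.968). Its 3 probes were not alike: KO minus WT was 2.18, 0.21 and 1.89 on slide 1, and 0.42, -0.03 and 0.71 for the 6 arrays of slide 2.

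Cx3cr1, the fractalkine receptor of patrolling monocytes, read -2.62 in WT and 2.07 in KO cells on slide 1. On slide 2 it read 0.23 in WT, 0.47 on the mixed array and -0.51, 1.60 and 2.95 (lowest, median, highest) on the single-mouse KO arrays. The WT array of slide 2 lay inside the KO range, MDS replicate 2 being the array below it, while the WT array of slide 1 was the lowest of all 10. The difference over both slides was 2.45 ± 0.94 (limma, adjusted p = 0.785), and all 3 probes of the gene gave a difference above 4 log2 units on slide 1 and above 1 on slide 2. Ccr2, the receptor with which inflammatory monocytes leave the marrow, read -2.71 in WT and 0.50 in KO cells on slide 1, and -0.86 in WT, -2.14 on the mixed array and -1.14, -0.26 and 0.98 on the single-mouse KO arrays of slide 2. Here too the groups overlapped on slide 2, with a difference of 1.41 ± 0.80 over both slides (limma, adjusted p = 0.968).

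Receptors that sense pathogens and antibody gave 3 of 7 members higher at an unadjusted p under 0.05 and 0 called by limma. Cd14, the co-receptor for bacterial lipopolysaccharide, read -0.89 in WT and 0.96 in KO cells on slide 1, and on slide 2 -3.35 in WT, where it was not well above background. The mixed array read -1.90 and the single-mouse KO arrays -1.85, -0.81 and 0.74 (lowest, median, highest). Every KO array lay above the WT array of its slide, and the difference was 2.31 ± 0.70 over both slides (limma, adjusted p = 0.614). Ly86, which encodes MD-1, the partner of the Toll-like protein RP105, read 0.26 in WT and 4.52 in KO cells on slide 1, and 2.66 in WT, 2.18 on the mixed array and 3.06, 3.71 and 4.84 on the single-mouse arrays of slide 2. Only the mixed array lay below its WT array, and the difference was 2.13 ± 0.76 (limma, adjusted p = 0.716).

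Fcgr3, a low-affinity IgG receptor that signals with an activating chain, read -3.69, not well above background, in WT and 0.12 in KO cells on slide 1. On slide 2 it read -0.78 in WT, -0.70 on the mixed array and -0.14, 1.18 and 1.85 on the single-mouse arrays. Both WT arrays lay below all 8 KO arrays, by a narrow margin from the mixed one, and the difference was 2.34 ± 0.79 (limma, adjusted p = 0.667). Tlr2, the sensor of bacterial lipopeptides, read 1.10 in WT and 2.38 in KO cells on slide 1, and 1.85 in WT, 1.70 on the mixed array and 1.20, 2.06 and 2.69 on the single-mouse arrays, with overlap on slide 2 and a difference of 0.55 ± 0.44 (limma, adjusted p = 0.968).

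Tyrobp, the DAP12 adaptor of myeloid and NK receptors, read 4.33 in WT and 6.25 in KO cells on slide 1, and 5.53 in WT, 4.75 on the mixed array and 4.89, 5.55 and 6.85 on the single-mouse arrays. On slide 2 its WT array sat amid the KO arrays, and the difference was 0.69 ± 0.60 (limma, adjusted p = 0.968). Of the remaining members of this role, the high-affinity IgG receptor Fcgr1 was well above background on 8 arrays with a difference of 0.81 ± 0.66. Tlr4, the lipopolysaccharide receptor itself, was so on 8 arrays with a difference of -0.87 ± 0.66, both with an adjusted p of 0.968 by limma.

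Adhesion receptors did not follow one direction, and 0 of 3 differed at an unadjusted p under 0.05 by limma. Itgam, the alpha chain of the complement receptor Mac-1, read 5.78 in WT and 5.65 in KO cells on slide 1, and 5.38 in WT, 5.32 on the mixed array and 4.39, 5.14 and 5.30 on the single-mouse arrays. Every KO array lay below the WT array of its slide, with a difference of -0.24 ± 0.32 over both slides (limma, adjusted p = 0.972). Itgax, which encodes CD11c of dendritic cells, read -1.72 in WT and -1.08 in KO cells on slide 1, and -0.24 in WT, 0.26 on the mixed array and -1.07, -0.08 and 0.88 on the single-mouse arrays, with overlapping groups and a difference of 0.37 ± 0.46 (limma, adjusted p = 0.968). Adgre1, the macrophage antigen F4/80, was not well above background on either WT array and was so on 5 of 8 KO arrays, with a difference of 1.78 ± 0.87 (limma, adjusted p = 0.945). Within slide 1 its KO level was at least 1.97-fold that of WT, and within slide 2 that of the 6 single-mouse arrays at least 1.40-fold, bounds for which a dim WT value was replaced by the dimmest signal that its array still called above background. By array, Adgre1 read -5.34 in WT and -2.33 in KO cells on slide 1, and -3.24 in WT, -3.98 on the mixed array and -3.14, -1.51 and -0.63 on the single-mouse arrays. Values of Adgre1 under background have no order among themselves. These values and bounds are those of the brighter Adgre1 probe. The other probe, well above background on 1 array, gave KO minus WT of -0.96 on slide 1 and 0.99 on slide 2.

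Scavenger, lectin and lysosomal membrane proteins gave values for Lgals3 and Ms4a6c, the members of the role that passed the filter over both slides, neither at an unadjusted p under 0.05 by limma. Lgals3, the secreted lectin galectin-3 of macrophages, read 0.01 in WT and 1.87 in KO cells on slide 1. On slide 2 it read -0.03 in WT, -1.37 on the mixed array and 1.50, 2.75 and 3.72 on the single-mouse arrays. The WT arrays were alike, all KO arrays but the mixed one lay above them, and the mixed one lay below. Over both slides Lgals3 differed by 1.97 ± 1.11 (limma, adjusted p = 0.967), and by 2.33 without the mixed array (adjusted p = 0.504). Ms4a6c, a membrane protein of the CD20 family, read 1.87 in WT and 4.04 in KO cells on slide 1, and 2.80 in WT, 2.26 on the mixed array and 2.34, 3.09 and 4.36 on the single-mouse arrays. Its groups overlapped on slide 2, with a difference of 0.93 ± 0.64 (limma, adjusted p = 0.968).

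Among secreted and killing effectors both lysozymes had a negative difference and the other 9 members a positive one. Of the 9 that passed the filter, limma called 0, with 5 higher and 0 lower at an unadjusted p under 0.05. Lyz1, which encodes the lysozyme of mouse Paneth cells, read 5.03 in WT and 4.52 in KO cells on slide 1, and 4.23 in WT, 4.07 on the mixed array and 3.11, 3.63 and 3.93 on the single-mouse arrays. Lyz2, the myeloid lysozyme gene often used to drive Cre, read 1.87 in WT and 0.73 in KO cells on slide 1, and 1.75 in WT, 1.73 on the mixed array and 0.97, 1.40 and 1.96 on the single-mouse arrays. Every KO array lay below the WT array of its slide for Lyz1, and all but MDS/MPN replicate 2 did for Lyz2. The differences were -0.57 ± 0.32 for Lyz1 (limma, adjusted p = 0.967) and -0.58 ± 0.35 for Lyz2 (adjusted p = 0.968), and either may hold signal of the other copy.

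Alox5, the 5-lipoxygenase that starts leukotriene synthesis and whose promoter is shown above, had the largest difference of any member over both slides. It read -3.21 in WT and 0.94 in KO cells on slide 1, and -2.29 in WT of slide 2, where it was not well above background. The mixed array read -1.60, the MDS arrays 3.23 and 0.41, the MDS/MPN arrays 3.31, -0.21 and 2.69 and the undetermined array 1.55. All 8 KO arrays lay above both WT arrays, and the KO arrays themselves spanned more than 4 log2 units. The difference was 3.82 ± 1.24 (limma, adjusted p = 0.657), and 4.13 without the mixed array (adjusted p = 0.440).

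F13a1, the A subunit of coagulation factor XIII and a monocyte gene, read 0.10 in WT and 4.33 in KO cells on slide 1. On slide 2 it read 2.95 in WT, 2.09 on the mixed array, 4.97 and 4.34 on the MDS arrays, 4.90, 4.56 and 4.78 on the MDS/MPN arrays and 5.32 on the undetermined array. The 7 KO arrays other than the mixed one lay within about 1 log2 unit of each other and above both WT arrays. The difference was 2.47 ± 0.84 over both slides (limma, adjusted p = 0.667), and 2.73 without the mixed array (adjusted p = 0.296).

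Mefv, which encodes pyrin, an inflammasome sensor, read -2.97 in WT and 1.99 in KO cells on slide 1, and -0.59 in WT, -1.94 on the mixed array and -0.35, 1.56 and 2.63 on the single-mouse arrays. Without the mixed array no KO value of Mefv fell under the WT value of its slide. The difference was 2.72 ± 1.18 with it (limma, adjusted p = 0.872) and 3.03 without it (adjusted p = 0.589). Mpeg1, the pore-forming perforin-2 of macrophages, read 0.34 in WT and 3.17 in KO cells on slide 1, and 2.56 in WT, 2.76 on the mixed array and 2.98, 3.46 and 4.24 on the single-mouse arrays. Its KO and WT arrays did not overlap, with a difference of 1.60 ± 0.51 (limma, adjusted p = 0.652).

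Ncf1, the p47 subunit of the NADPH oxidase, varied least among the single-mouse KO arrays, over 0.36 log2 units. It read 0.93 in WT and 2.50 in KO cells on slide 1, and 1.71 in WT, 1.66 on the mixed array and 2.36, 2.48 and 2.72 on the single-mouse arrays. The mixed array lay just below its WT array and the other KO arrays above theirs, with a difference of 1.01 ± 0.36 (limma, adjusted p = 0.703). Ctss, the lysosomal protease cathepsin S that trims the MHC class II chaperone, read 2.65 in WT and 3.82 in KO cells on slide 1, and 2.80 in WT, 2.75 on the mixed array and 2.57, 3.16 and 3.71 on the single-mouse arrays, with overlap on slide 2 and a difference of 0.62 ± 0.37 (limma, adjusted p = 0.968).

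Dendritic cell surface proteins gave 2 of 3 tested members higher at an unadjusted p under 0.05, 0 called by limma, and the tested member that differed least over both slides. The 2 were Cd83 and Clec9a, and Clec9a was under background on both WT arrays. Siglech, the lectin of plasmacytoid dendritic cells, read 8.36 in WT and 8.38 in KO cells on slide 1, and 7.67 in WT, 7.75 on the mixed array and 7.22, 7.44 and 7.85 on the single-mouse arrays. All groups overlapped, with a difference of -0.09 ± 0.28 (limma, adjusted p = 0.997) whose sign turns with the scaling of the arrays and with the probe. The second Siglech probe was well above background on 2 arrays and differed by 1.47 on slide 2 and -0.46 on slide 1, so the probes of this gene did not behave alike.

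Cd83, the maturation marker of dendritic cells, read 0.21 in WT and 0.91 in KO cells on slide 1. On slide 2 neither WT at -4.16 nor the mixed array at -3.12 was well above background, whereas the single-mouse arrays read -1.15, 0.20 and 1.58. The gap between WT and KO was thus found on slide 2, and the WT array of slide 1 lay within the KO range. Over both slides the difference was 2.67 ± 1.13 (limma, adjusted p = 0.862), and 0.70 on slide 1 alone. Clec9a, the dead-cell receptor of conventional type 1 dendritic cells, was well above background on the KO array of slide 1 and on MDS replicate 1, MDS/MPN replicate 2 and the undetermined array. It read -4.27 in WT and -2.85 in KO cells on slide 1, and -4.57 in WT, -4.59 on the mixed array and -3.33, -2.38 and -1.24 on the single-mouse arrays. The fitted difference over both slides was 1.74 ± 0.79 (limma, adjusted p = 0.900), which is no bound, since neither WT array was above background.

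Of the 3 transcription factors tested, limma called 0, with 1 higher at an unadjusted p under 0.05: Batf3, which directs the type 1 conventional dendritic cell fate. It was well above background on the 6 single-mouse KO arrays and on no other array. The WT arrays read -5.63 and -4.68 on slides 1 and 2, the KO array of slide 1 -3.87 and the mixed array -4.73. The MDS arrays read -0.62 and -2.25, the MDS/MPN arrays -0.68, -1.80 and -0.60 and the undetermined array -0.53. These 6 arrays lay apart from the other 4, which have no order among themselves, being under background. The fitted difference over both slides was 2.60 ± 1.04 (limma, adjusted p = 0.810), which is no bound, since on slide 1 neither array was above background.

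Irf5, an interferon regulatory factor of inflammatory macrophages, read 0.32 in WT and 0.40 in KO cells on slide 1, and 0.92 in WT, 0.94 on the mixed array and 0.98, 1.67 and 1.77 on the single-mouse arrays. Every KO array lay above the WT array of its slide by small margins, with a difference of 0.36 ± 0.34 (limma, adjusted p = 0.968). Klf4, which drives monocyte differentiation, read 4.29 in WT and 3.11 in KO cells on slide 1 and 0.55 in WT and 0.78 on the mixed array of slide 2. Its single-mouse KO values were -0.54 and -1.42 (MDS), -3.15 (not well above background), 4.34 and -0.99 (MDS/MPN) and -0.45 (undetermined). Klf4 varied most of all members over the 10 arrays, 7.49 log2 units, and its difference was -0.91 ± 1.52 (limma, adjusted p = 0.983).

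**Figure D3:**
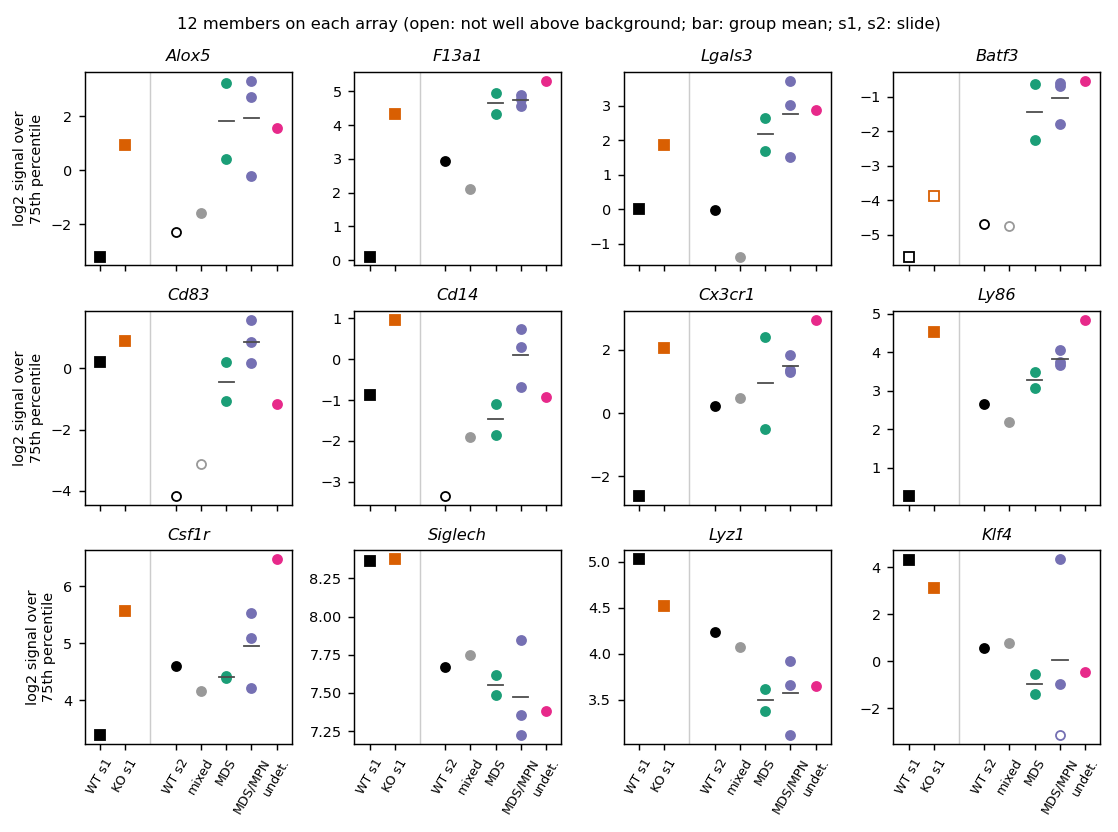
Log2 signal over the array's 75th percentile (vertical axes) of 12 members on each array, grouped along the horizontal axis by genotype, slide and disease label; points are arrays, open points were not well above background and short bars are means of groups of 2 or 3 arrays. For Batf3 the 6 single-mouse KO arrays lie between -2.25 and -0.53 and the other 4 arrays at -3.87 or lower, whereas for Siglech all arrays lie between 7.22 and 8.38.

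At 9-12 months the 6 single-mouse KO arrays were set against the 1 WT array of slide 2, a single array whose spread was taken to equal that of the KO arrays. Of the 39 members 29 had a positive difference, with a median of 0.81 against -0.10 over all features. By limma, 0 of 31 tested members were called, against 0.0051% of 19597 features called higher and 0.582% called lower. At an unadjusted p under 0.05 there were 7 members higher and 0 lower, where 1.42% of features were higher and 3.25% lower. Of these 7, 5 were under background in WT and so entered the test through the KO arrays alone. With features well above background on every array there were 2 of 20 members higher (0.958% of features). The 7 members higher under the main filter were Batf3, Cd83, F13a1, Lgals3, Alox5, Cd14 and Clec9a.

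Batf3 had the smallest adjusted p, 0.086 by limma, with a fitted difference of 3.60 ± 0.71, higher in 6 of 6 arrays, and a mean KO level at least 2.41-fold that of WT. Under the other scalings, filters and choices of arrays tried, its adjusted p ran from 0.0323, by limma with arrays scaled to their medians, to above 0.99. Cd83 differed by 4.26 ± 0.95 (limma, adjusted p = 0.131), at least 5.46-fold, and Alox5 by 4.13 ± 1.27 (adjusted p = 0.436), at least 17.4-fold. Cd14 differed by 2.76 ± 0.86 (limma, adjusted p = 0.442), at least 3.38-fold. F13a1 and Lgals3, measured on the WT array too, differed by 1.86 ± 0.45 (limma, adjusted p = 0.187) and 2.60 ± 0.78 (adjusted p = 0.384), and Clec9a by 2.25 ± 0.78 (adjusted p = 0.627). Over all 31 tested members, the WT array lay below all 6 KO arrays for 15, where 9.29% of features did. It lay above all 6 for 2, Itgam and Lyz1, where 13.9% did. Of the 15, Batf3, Cd83, Alox5, Cd14, Clec9a, Adgre1 and Cybb were under background in WT and entered through the KO arrays alone. The choice of WT array mattered for Cd83, whose difference was -0.11 against the WT array of slide 1, and for F13a1, Mpeg1 and Batf3, which limma called higher against that array at 4.71 (adjusted p = 0.0136), 3.22 (0.0440) and 4.55 (0.0379). Against that array 0.17% of features were called higher.

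On slide 1, the single KO array labelled 3 months exceeded the single WT array at least 2-fold for 20 of the 29 members well above background on either, against 12.8% of features, and fell short of it at least 2-fold for 3, Tlr4, Lyz2 and Klf4, against 12.1%. With 1 array a side there is no replicate check. The largest gaps among members measured on both arrays were those of Mefv at 31.1-fold, Cx3cr1 at 25.8-fold, Ly86 at 19.1-fold, F13a1 at 18.7-fold and Alox5 at 17.7-fold. Acod1, which makes the antimicrobial metabolite itaconate, was seen on the KO array alone, at least 13.4-fold above WT, and Fcgr3 likewise, at least 10.7-fold. With dim values replaced as for the bounds, 17 members were at least 2-fold higher, against 11.1% of features.

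The mixed KO array against the WT array of slide 2 gave another picture, again without replicates. One of 25 members, Cd14, was at least 2-fold higher, against 4.51% of features, and with the dim WT value so replaced it was at least 1.36-fold higher. Ccr2, Lgals3 and Mefv were at least 2-fold lower, 3 of 25, against 4.35% of features. By the same measure the MDS arrays had 13 of 31 and 7 of 28 members at least 2-fold above that WT array, where 7.03% and 7.76% of features were. The MDS/MPN arrays had 11 of 28, 15 of 33 and 13 of 30 such members (10.1%, 16.4% and 12.5% of features), and the undetermined array had 20 of 30 (18.1%). Batf3, Cd83, Alox5 and Cd14 were in every one of these counts. They were under background on that WT array and entered through the KO arrays alone. Dim values were not replaced for these counts. Members at least 2-fold lower numbered 1 or 2 on each of the 6 single-mouse arrays, where 5.84% to 17.1% of features were. The undetermined array held the highest values of Csf1r, Cx3cr1, Ccr2, Ly86, Tyrobp, Ms4a6c, Mefv and F13a1 of all 10 arrays.

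The WT arrays themselves differed. The one of slide 2 was at least 2-fold above that of slide 1 for 11 of 26 members, among them F13a1, Cx3cr1, Ly86, Mpeg1 and Mefv, against 9.87% of features. It was at least 2-fold below for 3, Cd14, Cd83 and Klf4, against 14.1%. Slide and time since transplantation cannot be told apart in this pair. Over all features the median of this difference was 0.72 and over the members 0.80.

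Whether the KO difference itself differed between slides was tested with limma as the difference at 9-12 months minus that at 3 months, with the spread taken from the 6 single-mouse KO arrays. Of 31 tested members 0 were called, as were 0% of 23292 features in each direction. At an unadjusted p under 0.05, 3 members were lower (F13a1, Ly86 and Fcgr1) and 1 higher (Cd83), against 2.59% and 2.39% of features. The contrast was -2.37 ± 0.78 for F13a1 and -3.10 ± 1.02 for Ly86 (limma, adjusted p = 0.717 for both), -2.77 ± 1.21 for Fcgr1 (adjusted p = 0.990) and 3.57 ± 1.57 for Cd83 (adjusted p = 0.998). Fcgr1 was under background in WT of slide 1 and Cd83 in WT of slide 2, so neither contrast is a bound. With the dim WT value replaced as for the bounds, Fcgr1 was at least 1.60-fold higher in KO on slide 1. Without the undetermined array 6 members were lower at an unadjusted p under 0.05 (2.81% of features). Without MDS replicate 1 or MDS/MPN replicate 3 there were 2 (2.19% and 2.26% of features). The medians were -0.23 over the members and -0.26 over all features. For F13a1, Ly86 and Fcgr1 the WT value was the lower one on slide 1, whereas for Cd83 it was the lower one on slide 2.

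**Figure D4:**
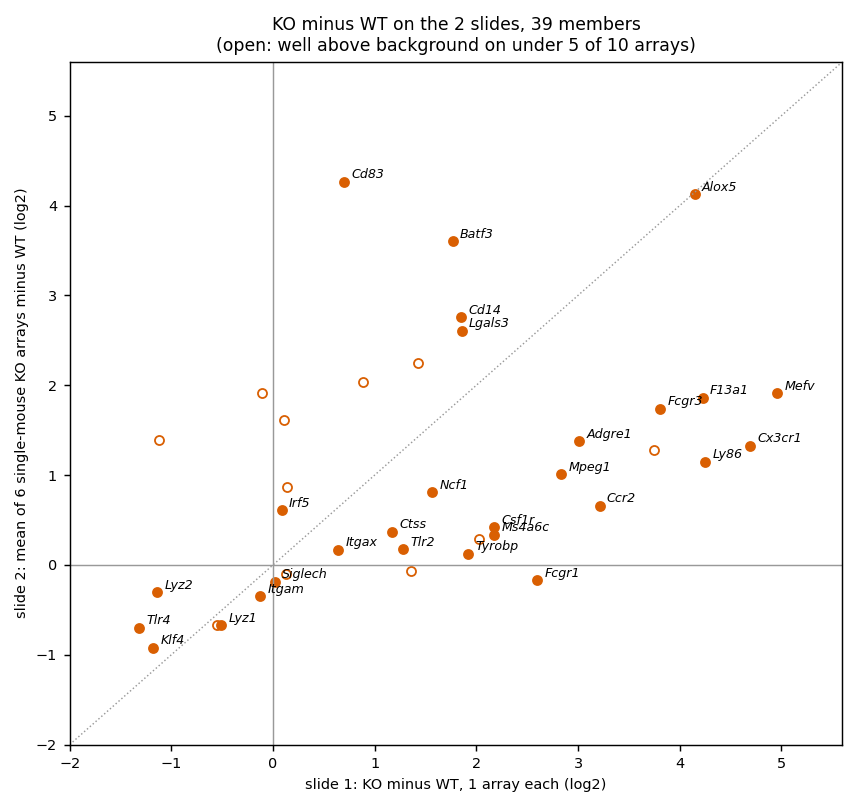
KO minus WT in log2 units on slide 1 (horizontal axis, 1 array each) and on slide 2 (vertical axis, mean of the 6 single-mouse KO arrays minus the 1 WT array) for 39 members; open points were well above background on under 5 of 10 arrays and the dotted line marks equal differences. Of the 39 members 27 are positive on both slides and 6 negative on both, with Cd83 far above the line and Mefv, Cx3cr1, Ly86 and F13a1 below it.

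Between the diseases, MDS/MPN (3 arrays) against MDS (2 arrays), limma called 0 of 33 tested members and 0% of 20727 features in either direction. Disease label and line on the slide cannot be told apart in this comparison. At an unadjusted p under 0.05 there were 3 members higher, Acod1, Mefv and Cd14, and 0 lower, against 1.49% and 2.96% of features. The median difference of the 39 members was 0.26, and 0.13 over all features. The member median ranged from 0.05 without MDS/MPN replicate 3 and 0.08 without MDS replicate 2 to 0.48 without MDS replicate 1 and 0.56 without MDS/MPN replicate 2. Over all features the median was 0.007, 0.10, 0.16 and 0.62 under the same settings. At an unadjusted p under 0.05 there were 1 member higher and 2 lower without MDS replicate 2 (0.434% and 2.89% of features) and 5 higher without MDS replicate 1 (0.776% of features). Without MDS/MPN replicate 2 there were 7 of 33 higher, but 19.0% of all features were higher too. With features well above background on every array, 1 of 20 members was higher (1.78% of features). Acod1 was well above background on the 3 MDS/MPN arrays at -1.19, -2.54 and -0.84 and on neither MDS array, at -4.29 and -4.34. Its MDS/MPN level was at least 2.15-fold that of MDS, with a fitted difference of 2.79 ± 0.57 (limma, adjusted p = 0.992). On the undetermined array, on the mixed array and on both WT arrays Acod1 was not well above background, and on the KO array of slide 1 it read 0.47, so its detection did not follow the disease label alone.

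Mefv read 0.41 and -0.35 on the MDS arrays and 1.54, 1.59 and 2.13 on the MDS/MPN arrays, a difference of 1.72 ± 0.41 (limma, adjusted p = 0.992). Cd14 read -1.09 and -1.85 on the MDS arrays and -0.69, 0.29 and 0.74 on the MDS/MPN arrays, a difference of 1.58 ± 0.54 (limma, adjusted p = 0.992). Neither gene's groups overlapped, which was also so for Ly86, Ms4a6c and Lyz2 (higher) and Ctss (lower), in a comparison where 7.74% of features did not overlap upward and 12% downward. F13a1, at 0.10 ± 0.36, and Alox5, at 0.11 ± 1.30, stood close to 0 between the diseases. In the same comparison all 7 MHC class II genes had a positive difference, with a median of 1.70, and 8 of 11 LSK markers a negative one, with a median of -1.22. The part of either in the members' values was not tested.

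**Figure D5:**
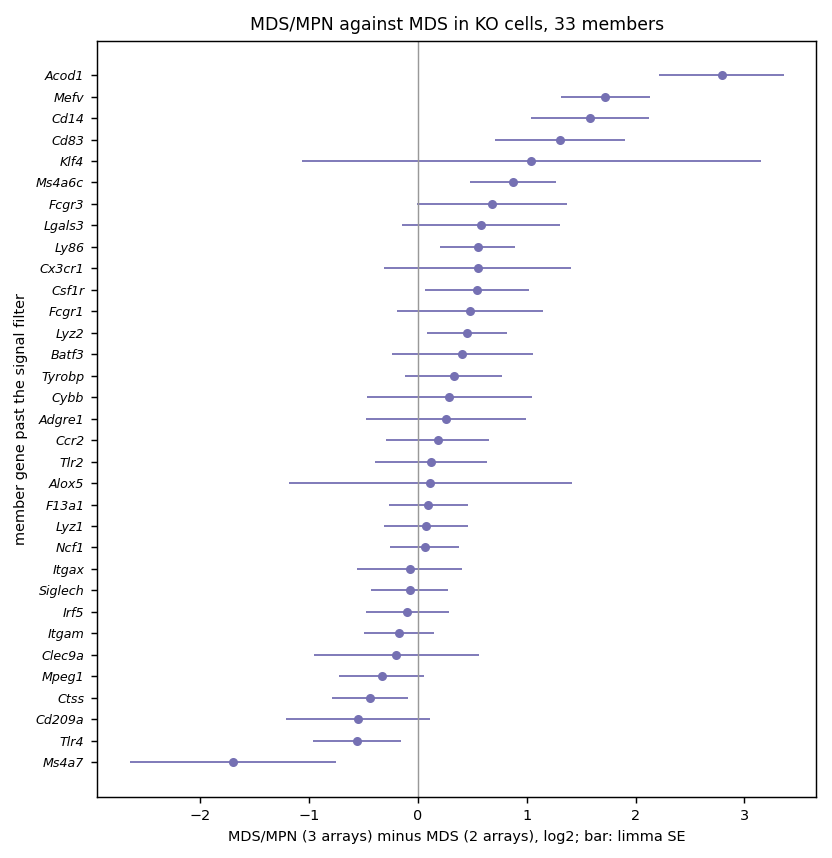
MDS/MPN minus MDS in log2 units (horizontal axis) for the 33 members that passed the signal filter (vertical axis, ordered by difference); points are differences of 3 and 2 array means and bars are limma standard errors. Acod1 (2.79), Mefv (1.72) and Cd14 (1.58) lie farthest to the right and Ms4a7 (-1.70) farthest to the left. Ms4a7 was well above background on MDS replicate 1 alone and passed the filter through that array.

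Of 49 further genes of the same pathways, 45 passed the filter over both slides and limma called 0 in either direction. At an unadjusted p under 0.05 there were 4 higher and 1 lower, against 1.9% and 3.64% of features. Their median difference was 0.38 over all 49 (0.46 for 18 partner subunits and adaptors, 0.22 for 10 ligands and growth factors, 0.20 for 7 other receptors and 0.37 for 14 lineage transcription factors). Among the largest differences were those of Trem2, a lipid receptor that signals through Tyrobp, at 2.02 ± 1.24 (limma, adjusted p = 0.968), and Csf2rb2 and Csf2rb, beta chains of myeloid cytokine receptors, at 1.65 ± 0.67 (adjusted p = 0.828) and 1.63 ± 0.59 (adjusted p = 0.723). For Trem2 neither WT array was well above background, and at 9-12 months the 6 KO arrays were at least 2.49-fold higher.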

How the data were processed

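The 10 scanner files held an intensity per spot that, per the file headers, Agilent Feature Extraction 10.7.1.1 had background-subtracted and detrended (the submitters' processing notes name version 9.1). The authors' value table, as deposited, holds a ratio of that intensity to the array's 75th percentile. Columns and scanner files were matched by value, with the difference having an SD of at most 0.000307 log2 units, and 4 time labels were found exchanged. Genes were named through RefSeq accessions on GRCm38.p6, with the brightest of several probes standing for a gene. Signals were taken as log2 over the 75th percentile without control and outlier spots. Features well above background on at least 50% of the arrays of 1 group entered limma 3.58.1 (R 4.3.3), with Benjamini-Hochberg adjustment and a threshold of 0.05. The script was tested on simulated data. Figures were drawn with matplotlib 3.10.9 and tables made with pandas 2.3.3 and numpy 2.4.6 under Python 3.11.15. Members and lists were chosen with earlier results of these data known. Values on every array are given for members past the threshold, the 2 of each role with the largest difference over both slides, and those well above background on all 10 arrays, and the 4 further pathway genes with the largest difference were to be named, of which 1 is not reported here.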

Additional observations from a re-analysis of the deposited data

Results flagged for a closer look

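Among the 27 members whose values were printed by array, the gap between the outermost single-mouse KO array and its nearest neighbour was set against the range of the 6 arrays, a test that chance alone passes in about 1 of 20 groups. It was passed by Itgam and by Klf4. Itgam read 4.39 on the undetermined array, the lowest of the 6, with the nearest array at 4.97 (gap over range 0.64). Klf4 read 4.34 on MDS/MPN replicate 2, the highest of the 6, with the nearest array at -0.45 (gap over range 0.64).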

How the results depend on the processing

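No paired analysis was possible because the labels give the arrays no shared replicate numbers. The median of the members over both slides and at 9-12 months was positive under every alternative tried. Over both slides it was 0.42 with normexp background and ran from 0.69 to 1.42 as each array was left out. At 9-12 months it was 0.28 with normexp, 1.59 with the deposited value table, 1.30 with both WT arrays as 1 group and 1.58 with the WT array of slide 1. The median over all features moved too, to -0.086, 0.68, 0.26 and 0.68 under these settings. Members minus all features was thus 0.36, 0.91, 1.04 and 0.91, where the main fit gave 0.91. The count of members called higher there was 1 with median scaling (Batf3, limma adjusted p = 0.0323), 1 with the value table (F13a1, adjusted p = 0.0230) and 3 with the WT array of slide 1. Of all features, 0.046%, 0.051% and 0.17% were called higher under these settings. The value table, with its exchanged time labels, gave a median of 1.64 for the difference between slides, against 0.68 over all features. In the pairs, dim values raised left 0 members higher on the mixed array (3.01% of features). Median scaling gave 5 of 26 members lower on the WT array of slide 2, where 29.2% of features were.

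Signs turned for 6 members that were not called. Over both slides Siglech was 0.041 with median scaling and 0.28 with the median probe, with a range of -0.15 to 0.014 as each array was left out, and Tyrobp ranged from -0.0048 to 1.92. At 9-12 months Siglech was 0.016 and 0.64 under those settings. Tyrobp was -0.073 with quantile normalization, -0.0048 with the mixed array added and -0.31 with the MDS arrays alone, and Csf1r was -0.0080 with the median probe and -0.20 with the MDS arrays alone. Ms4a6c was -0.43 with the MDS arrays alone, and Cd83 was -0.10 with the value table and -0.11 with the WT array of slide 1. As each array was left out, Tyrobp ranged from -0.12 to 0.28 and Itgax from -0.025 to 0.36. Except where fewer arrays or exchanged labels enter by construction, the cause was not tested. Median scaling set the median of all features at 0.13 over both slides and 0.10 at 9-12 months.

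WT cells came from 1 array per slide, so their spread is unknown, and slide and time cannot be told apart. Where all arrays of a group were under background, as for Batf3, Cd83, Cd14 and Alox5 in WT at 9-12 months and Fcgr3 in WT on slide 1, folds are lower bounds.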
